A study of Mus musculus with 6 samples.

Results

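The 10 genes described here are those of blood coagulation and plasminogen activation F3, F5, F7, F10, Thbd, Procr, Vwf, Plat, Plau and Plaur. Every probe set whose single gene symbol in the platform annotation was one of these was taken, which gave 14 of the 12488 probe sets on the array and 10 of its 8251 named genes. Lung RNA of ICR, DBA and C57 mice was hybridised to 6 Affymetrix arrays, with 1 smoked and 1 control array for each of the 3 strains. Smoked mice received smoke of 3 cigarettes a day on 5 days a week for 4 weeks, and control lungs are labelled as normal lung. The labels used here state no age, sex or substrain, nor if the RNA of an array was pooled, though each title numbers its mouse 1. No group within a strain had a replicate, so the 3 strains served as the replicates of smoke, and p-values measure only the spread between these arrays.

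Coagulation starts when tissue factor, the membrane protein encoded by F3, meets factor VII in plasma. The pair activates factor X, which with its cofactor, factor V, turns prothrombin into thrombin. Von Willebrand factor, made by endothelium and megakaryocytes, holds platelets to injured vessel walls and carries factor VIII. Thrombomodulin (Thbd) and the endothelial protein C receptor (Procr) turn thrombin towards activating protein C, which destroys factor V. The activators Plat (tissue-type) and Plau (urokinase) convert plasminogen into plasmin, the enzyme that dissolves fibrin, and Plaur is the receptor that holds urokinase on cells. Lung is rich in tissue factor, thrombomodulin and Von Willebrand factor, while most soluble factors are made in liver.

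The arrays differed in brightness. Median deposited intensity was 26.0 on the ICR smoked array and 52.5 to 85.0 on the other 5, and the 3' to 5' ratio of beta-actin was 4.75 on the ICR smoked array against 1.46 to 2.75 on the others. Deposited intensities of ICR smoked are therefore low for most genes, and differences are given after quantile normalization, on the scale of log2(intensity + 8.05). The lung markers Sftpc and Scgb1a1 read 7184 to 10580 and 7572 to 10320 on the 6 arrays. Of 11 endothelial markers measured, Eng read 2769 to 4679 and Cdh5 1269 to 2284, while Pecam1 read 12.1 to 43.5. Of the 14 probe sets, 10 passed the filter on low signal, a mean above the 40th percentile, and these cover 8 of the 10 genes. F10 and Plau did not pass with any probe set, and Vwf passed with 1 of its 2.

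The first question was whether smoke changed these genes in all 3 strains. No member passed the test for smoke: limma called 0 of the 10 probe sets tested, against 0.0403% of all 7453 (3 probe sets), and 1 of the 10 had an unadjusted p below 0.05, against 122 of 7453. The median smoke difference of the 10 was log2 -0.05, against 0.006 over all probe sets tested. The direction was the same in all 3 pairs for 2 of the 10, F3 and F5, both lower, where 17.7% of all probe sets tested ran one way and 7.82% ran lower. Of the 10 probe sets tested, 0 differed by 2-fold within any pair, where 6.48% of all probe sets did in ICR, 3.05% in DBA and 1.21% in C57. That count has no test, since each group is 1 array, and it leaves out F10, whose 2 probe sets, below the filter, both differed by more than 2-fold in DBA.

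**Figure D1:**
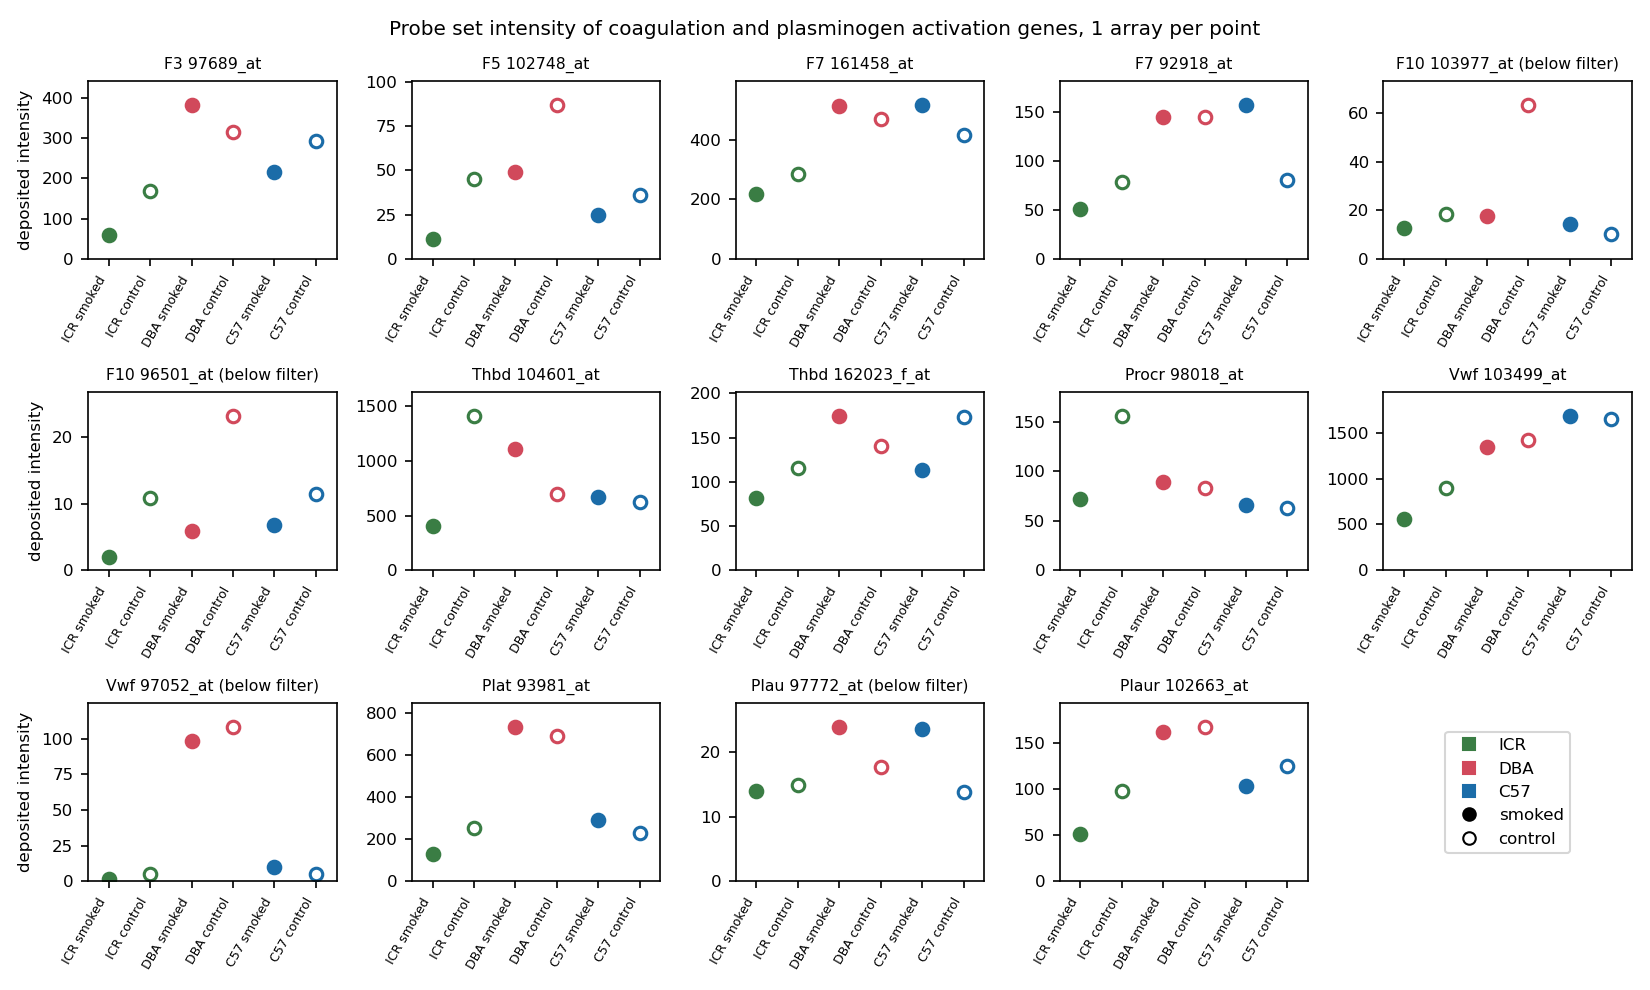
Deposited intensity (linear axis from 0) of the 14 probe sets, 1 point per array, smoked filled and control open, for ICR, DBA and C57. Plat and the second Vwf probe set (97052_at) stand high on the DBA arrays, and F10 stands high on the DBA control array.

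F5 had the lowest p for smoke among the 10 probe sets tested. F5 (chromosome 1, 164151835 to 164220277 of GRCm38), coagulation factor V, read 11.3 in smoked and 45.2 in control ICR lungs, 49.3 in smoked and 87.0 in control DBA lungs, and 25.0 in smoked and 36.0 in control C57 lungs. Each smoked array was below the control array of its strain, but the DBA smoked array was above the ICR and C57 control arrays. On the normalized scale all 3 smoked arrays lay below all 3 control arrays, which among the 10 probe sets tested held for F5 alone, and for 3.56% of all probe sets tested. After normalization the differences were log2 -0.84 in ICR, -0.996 in DBA and -0.38 in C57. The limma estimate was -0.74 (SE 0.26, 3 pairs, 95% interval -1.33 to -0.15, adjusted p = 1), so F5 did not pass. Its signal was low, at the 41.9th percentile of mean signal, just above the filter. Its control arrays averaged 5.84 and its smoked arrays 5.10, where the lowest mean kept was 5.34. F5 thus passed the filter through its control arrays. The shares over probe sets that passed are therefore no clean background for its smoke difference.

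F3 (chromosome 3, 121723537 to 121735052), tissue factor, read 58.8 in smoked and 168 in control ICR lungs, 382 in smoked and 315 in control DBA lungs, and 215 in smoked and 294 in control C57 lungs. The normalized differences were log2 -0.46 in ICR, -0.02 in DBA and -0.36 in C57, and the estimate was -0.28 (SE 0.20, adjusted p = 1). The DBA arrays thus lay within log2 0.02 of each other, and the smoked array was lower in the other pairs.

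F7 (chromosome 8, 13025506 to 13035809), factor VII, has 2 probe sets that passed the filter. The one numbered 161458_at read 217 in smoked and 286 in control ICR lungs, 513 and 470 in smoked and control DBA lungs, and 517 and 416 in smoked and control C57 lungs. The one numbered 92918_at read 50.9 and 78.2 in smoked and control ICR lungs, 145.0 and 144.6 in smoked and control DBA lungs, and 157 and 80.8 in smoked and control C57 lungs. After normalization they ran the same way: higher with smoke in ICR (log2 0.53 and 0.37) and C57 (0.38 and 0.86), lower in DBA (-0.18 and -0.28). The estimates were 0.24 (SE 0.20) and 0.31 (SE 0.25), each with adjusted p = 1.

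F10 (chromosome 8, 13037308 to 13056676), the gene of factor X, lies next to F7 on the chromosome. Its probe set 103977_at read 12.95 in smoked and 18.7 in control ICR lungs, 17.8 in smoked and 63.4 in control DBA lungs, and 14.6 in smoked and 10.4 in control C57 lungs. The DBA control array stood above the other 5, which lay between 10.4 and 18.7. Its other probe set, 96501_at, read 23.3 on that array and 1.97 to 11.6 on the others, so both were highest in the DBA control lung. After normalization the smoked minus control difference in DBA was log2 -1.59 at 103977_at and -1.13 at 96501_at. At 96501_at all smoked arrays lay below all control arrays on the normalized scale, as for F5, but 3 arrays read below the added constant. The share given for F5, 3.56%, covers only probe sets that passed the filter, so it is no background for this dimmer one. Neither probe set passed the filter. Fitted without the filter, their smoke estimates were log2 -0.32 (SE 0.42) and -0.75 (SE 0.23), each with adjusted p = 1. In that fit 96501_at had the lowest unadjusted p for smoke of all 14 member probe sets, below that of F5.

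The DBA control array was also the highest for F5 and for neutrophil markers. The summed intensity of 10 neutrophil markers was 1195 in smoked and 3186 in control ICR lungs, 1595 in smoked and 18440 in control DBA lungs, and 1466 in smoked and 1343 in control C57 lungs. S100a8 alone read 6766 in the DBA control lung and 242 to 1449 on the other arrays. Macrophage and monocyte markers, 10 measured, summed to 1407 in smoked and 2844 in control ICR lungs, 2200 in smoked and 4739 in control DBA lungs, and 3049 in smoked and 1884 in control C57 lungs. Of these markers, Chil3 alone read 1663 in smoked and 660 in control C57 lungs. The markers did not all follow their sum, and Marco was lowest in the DBA control lung, at 2.03. The part of these cells in the F5 and F10 values was not tested. Of the 8 neutrophil markers that passed the filter, limma called 5 lower in the response of DBA and 0 for smoke over the strains. Of all probe sets tested, 0.711% and 0.0403% were called in these tests, in either direction. Without the DBA pair the smoke estimate of F5 was log2 -0.60, and it was not called.

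**Figure D2:**
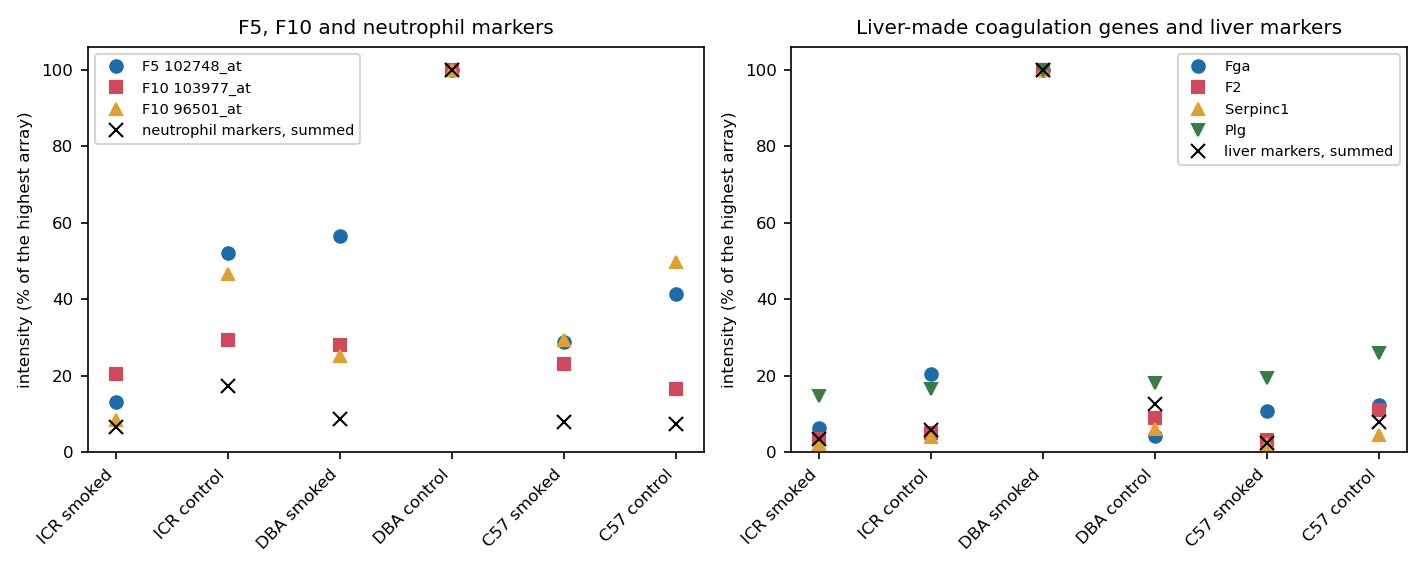
Intensity of each gene or marker list on each array, as a percentage of its highest array. Left, F5, both F10 probe sets and the summed neutrophil markers all peak on the DBA control array. Right, Fga, F2, Serpinc1, Plg and the summed liver markers all peak on the DBA smoked array.

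Vwf (chromosome 6, 125552948 to 125686679) differed little with smoke at the probe set that passed the filter. Its probe set 103499_at was among the brightest of the lung, at the 97.5th percentile of mean signal, with 563 in smoked and 899 in control ICR lungs, 1342 and 1428 in smoked and control DBA lungs, and 1688 and 1657 in smoked and control C57 lungs. The normalized differences were log2 0.22, -0.36 and 0.09 in ICR, DBA and C57, and the estimate was -0.02 (SE 0.17, 95% interval -0.41 to 0.38, adjusted p = 1). At 97052_at, below the filter, they were -0.36, -0.42 and 0.49 in the same order. Fitted without the filter, the estimate of 97052_at was -0.10 (SE 0.29, 95% interval -0.79 to 0.59).

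The anticoagulant receptors did not pass the test for smoke either. Thbd (chromosome 2, 148404471 to 148408188) read 405 in smoked and 1415 in control ICR lungs at its brighter probe set, 104601_at, the widest gap of any pair for that probe set. It read 1113 in smoked and 699 in control DBA lungs, and 667 and 625 in smoked and control C57 lungs. The normalized differences were log2 -0.87 in ICR, 0.37 in DBA and 0.15 in C57, and the estimate over strains was -0.12 (SE 0.24, adjusted p = 1). The other Thbd probe set, 162023_f_at, went the opposite way in ICR (0.49) and C57 (-0.52), with 82.1 and 116 in smoked and control ICR lungs, 175 and 141 in smoked and control DBA lungs, and 113 and 174 in smoked and control C57 lungs. The probe sets of Thbd thus disagreed on the direction in ICR and in C57.

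A smoke response peculiar to 1 strain was tested for the 10 probe sets that passed the filter. None of the 10 was called for ICR, DBA or C57, with 0%, 0.711% and 0.134% of all probe sets called. At an unadjusted p below 0.05 the ICR test had 1 member, Thbd at 104601_at, against 1067 of all 7453, and the DBA and C57 tests had 0, against 294 and 224. The ICR pair of that probe set was lower than the other pairs by a log2 difference of -1.13 (SE 0.27, adjusted p = 0.302 by limma), and -2.16 without scaling between arrays, where it was called. Without scaling the median over all probe sets moved by -0.99 and 1787 were called. Fitted without the filter, F10 at 103977_at had a DBA response of log2 -1.90 (SE 0.66, adjusted p = 1). This fit has 1 residual degree of freedom and takes the single pair to vary like the others.

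Procr (chromosome 2, 155751125 to 155755478) read 72.1 in smoked and 156 in control ICR lungs, 89.1 and 83.0 in smoked and control DBA lungs, and 66.3 and 63.2 in smoked and control C57 lungs. After normalization the smoked and control arrays of a strain lay within 0.20 of each other, at log2 -0.11, -0.20 and 0.06 in ICR, DBA and C57. The smoke estimate was -0.08 (SE 0.21, adjusted p = 1).

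Of the plasminogen activation genes, Plat (chromosome 8, 22757722 to 22782848) read 128 in smoked and 256 in control ICR lungs, 736 and 691 in smoked and control DBA lungs, and 290 and 231 in smoked and control C57 lungs. The smoke differences were log2 -0.0008, -0.23 and 0.35 in the same order, and the estimate was 0.04 (SE 0.19, adjusted p = 1). Without scaling the estimate was -0.18, where the median over all probe sets moved by -0.21. Plau (chromosome 14, 20836662 to 20843388), urokinase, was dim, with 14.1 and 14.9 in smoked and control ICR lungs, 24.0 and 17.8 in smoked and control DBA lungs, and 23.6 and 13.9 in smoked and control C57 lungs. Its smoked arrays were higher after normalization in every pair, by log2 0.63, 0.08 and 0.53, but it was below the filter. Fitted without the filter the estimate was 0.41 (SE 0.27, adjusted p = 1). Plaur (chromosome 7, 24460937 to 24475970), the urokinase receptor, read 51.3 and 97.9 in smoked and control ICR lungs, 162 and 168 in smoked and control DBA lungs, and 103 and 125 in smoked and control C57 lungs, with an estimate of -0.16 (SE 0.21, adjusted p = 1).

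**Figure D3:**
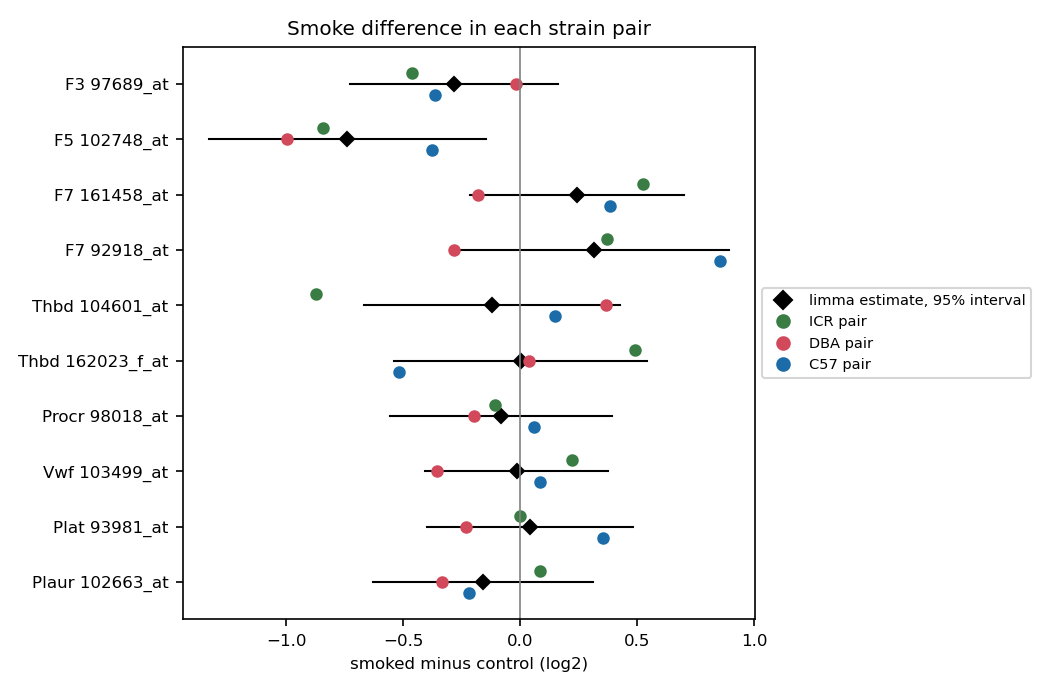
Smoked minus control on the log2 scale for the 10 probe sets that passed the filter, with 1 point per strain pair and the limma estimate with its 95% interval. F3 and F5 have all 3 pairs below 0, and the interval of every probe set but F5 includes 0.

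Strains were compared over both exposures, with 2 arrays each. The Plat signal was 2.54-fold higher in DBA lungs than in C57 lungs, and the Procr signal 2.51-fold higher in ICR lungs than in C57 lungs. These were the 2 calls among members. In DBA against C57, 1 of 10 probe sets was called higher and 0 lower, against 0.872% of all probe sets higher and 1.73% in either direction. In ICR against C57 it was also 1 higher and 0 lower, against 0.926% higher and 2.29% in either direction, and in ICR against DBA 0 of 10, against 1.17%, with 3 members at an unadjusted p below 0.05, against 1160 of all 7453. These comparisons share arrays pairwise and are given side by side. The arrays did not overlap for 5 members in DBA against C57, 5 in ICR against C57 and 4 in ICR against DBA, shares close to the 52.5%, 51.2% and 47.9% over all probe sets. The strains also differed in skeletal muscle markers: 6 were measured and 5 passed the filter, and limma called all 5 lower in DBA than in C57 (median log2 -2.95) and in ICR than in C57 (-3.37). Their summed intensity was 78.2 and 136 in smoked and control ICR lungs, 337 and 735 in smoked and control DBA lungs, and 3899 and 5587 in smoked and control C57 lungs. Of 5 airway markers, 2 were called lower in ICR than in C57. The beta-actin 3' to 5' ratio was 1.66 and 1.46 in smoked and control DBA lungs, and 2.51 and 2.75 in smoked and control C57 lungs. The part of these differences in the Plat and Procr values was not tested. In bulk lung, fewer cells of a type and less RNA per cell cannot be told apart.

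Plat averaged 9.19 ± 0.16 in DBA lungs and 7.85 ± 0.25 in C57 lungs on the normalized log2 scale (SD, n = 2 each), a difference of log2 1.34 (SE 0.24, 95% interval 0.80 to 1.88, adjusted p = 0.0249 by limma). Both DBA arrays were above all 4 others. ICR against DBA was log2 -1.05 (SE 0.24, adjusted p = 0.0874), which did not pass. It was called without scaling (-1.93, where the median over the array moved by -0.89 and 261 probe sets were called). It was also called without the C57 smoked or C57 control array, at log2 -1.04 and -1.05, where the calls over all probe sets rose as well. ICR (8.14 ± 0.0006) and C57 did not differ beyond their spread by the test (0.29, SE 0.24, 95% interval -0.25 to 0.83, adjusted p = 0.557). This difference was -0.50 without scaling, where the median over all probe sets moved by -0.73. The direction of the DBA difference was the same in all 13 alternatives, at log2 1.10 to 1.57, but it was called in only 5, and it was lost without the C57 control, DBA control, ICR smoked or ICR control array (adjusted p = 0.246, 0.132, 0.0585 and 0.0563).

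Procr averaged 7.41 ± 0.08 in ICR lungs, 6.16 ± 0.14 in DBA lungs and 6.08 ± 0.04 in C57 lungs (SD, n = 2 each). ICR was higher than C57 by log2 1.33 (SE 0.26, 95% interval 0.75 to 1.91, adjusted p = 0.0355 by limma). ICR against DBA was 1.25 (SE 0.26, adjusted p = 0.0629), which did not pass. It was called without the C57 smoked or C57 control array, at log2 1.24 and 1.23, where the calls over all probe sets rose as well. DBA against C57 was 0.07 (SE 0.26, 95% interval -0.51 to 0.66, adjusted p = 0.960). Both ICR arrays were above the other 4 after normalization. On deposited intensities only the ICR control array was, and without scaling between arrays ICR against C57 was 0.66 (adjusted p = 0.440), with a median of -0.73 for the whole array. The ICR against C57 call was also lost without the C57 smoked, C57 control, ICR smoked or ICR control array (adjusted p = 0.0898, 0.277, 0.0654 and 0.161).

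Because Procr carries 1 of the called differences, its upstream sequence is shown beside that of F3, where the same motif was found. RefSeq promoter windows of GRCm38.p6 (250 bases before to 50 after a start) were at hand for 6 of the 10 genes, and Plat was not among them. The stretches run 5′ to 3′ on the + strand and end at the base before the annotated gene start, at chr2:155750967-155751124 for Procr and chr3:121723287-121723536 for F3. Capitals mark the AP-1 motif TGAGTCA, searched on both strands, so that it reads TGACTCA in Procr.
Procr: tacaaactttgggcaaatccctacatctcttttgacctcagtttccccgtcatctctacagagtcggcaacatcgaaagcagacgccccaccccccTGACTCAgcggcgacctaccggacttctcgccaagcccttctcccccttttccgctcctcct
F3: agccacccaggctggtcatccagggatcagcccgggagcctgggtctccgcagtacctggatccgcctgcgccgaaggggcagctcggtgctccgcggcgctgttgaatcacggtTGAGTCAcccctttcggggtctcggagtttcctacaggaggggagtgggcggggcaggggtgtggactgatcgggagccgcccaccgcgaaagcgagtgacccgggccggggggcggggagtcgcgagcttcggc

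The AP-1 motif was found in the windows of 3 of the 6 genes, Procr, F3 and Plaur, and in 5.20% of all 32851 windows. The core motif of the aryl hydrocarbon receptor, GCGTG, was found in none of the 6 windows and in 32.4% of all. The GC box GGGCGG was found 3 times in F3, 3 times in Plaur and once in F5, and in 35.7% of all windows. The letters of the TATA box, TATAAA, were found in F3 alone of the 6, and in 13.6% of all windows. In F3 they are not in the stretch printed above, so the match lies after the annotated gene start. The reference sequence is that of C57BL/6J, so sequence differences of DBA or ICR are not shown by it, and a match describes letters only.

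**Figure D4:**
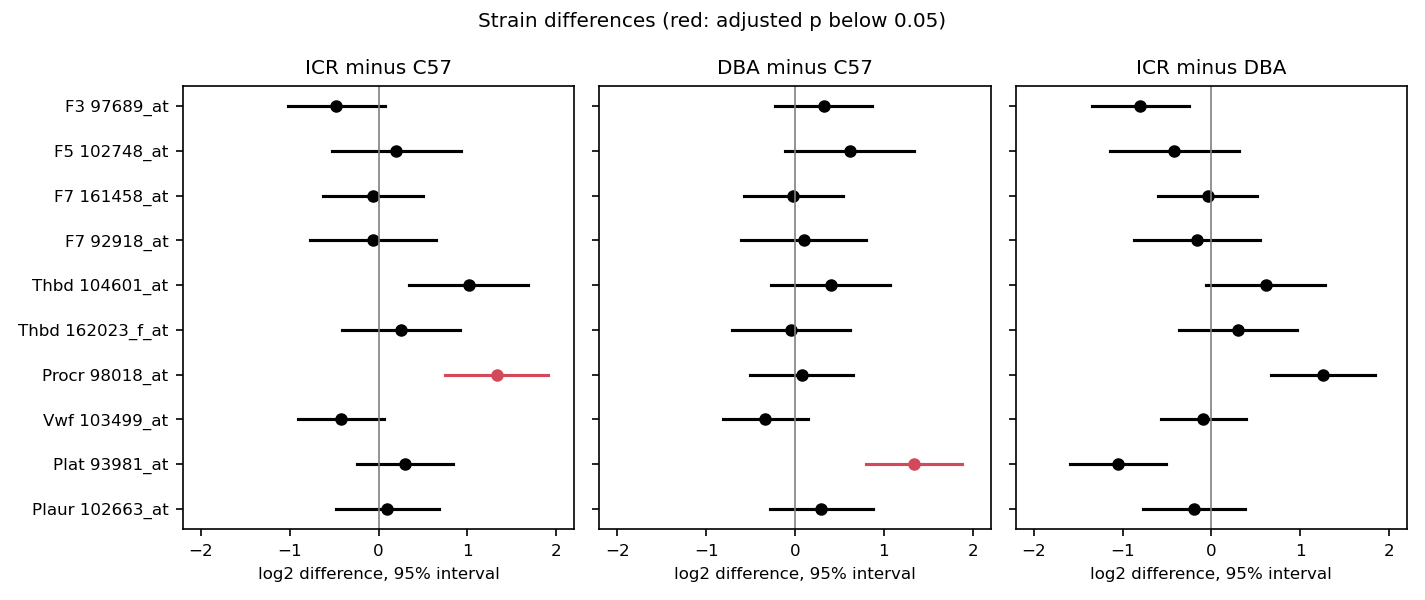
Strain differences on the log2 scale with 95% intervals for the 10 probe sets that passed the filter, from limma, with 2 arrays per strain. Called differences are red: Procr in ICR minus C57 and Plat in DBA minus C57.

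Thbd was highest in the ICR control lung at 104601_at. It averaged 10.12 ± 0.62 in ICR, 9.51 ± 0.26 in DBA and 9.11 ± 0.10 in C57 (SD, n = 2 each). ICR against C57 was log2 1.01 (SE 0.30, adjusted p = 0.120), which did not pass. It was called without the DBA smoked, DBA control or ICR smoked array, at log2 1.02, 1.01 and 1.57. Without either DBA array the calls over all probe sets rose as well, while the Thbd estimate hardly moved. At 162023_f_at the same difference was 0.25 (SE 0.29, adjusted p = 0.692). Without scaling the first was 0.23 and the second -0.49, where the median over all probe sets moved by -0.73.

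F3 was lowest in ICR. It averaged 7.33 ± 0.33 in ICR, 8.12 ± 0.01 in DBA and 7.80 ± 0.26 in C57, and ICR against DBA was log2 -0.80 (SE 0.24, adjusted p = 0.165), which did not pass. F5 averaged 5.40 ± 0.60, 5.82 ± 0.70 and 5.20 ± 0.27 in the same order, and no strain difference passed (adjusted p from 0.538 to 0.789). F7 lay within log2 0.16 between any pair of strains at both probe sets, and Plaur within 0.30, with adjusted p values from 0.748 to 0.988.

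The probe sets of Vwf disagreed on the strains. At 103499_at the strains were close, with 10.04 ± 0.16 in ICR, 10.13 ± 0.25 in DBA and 10.46 ± 0.06 in C57, and no difference passed (largest log2 -0.42, ICR against C57, SE 0.21, adjusted p = 0.338). At 97052_at the deposited intensity was 1.397 and 4.86 in smoked and control ICR lungs, 98.2 and 108 in smoked and control DBA lungs, and 9.79 and 4.92 in smoked and control C57 lungs. That probe set fell below the filter because it was dim outside DBA. Fitted without the filter, DBA was higher than C57 by log2 2.46 (SE 0.36, adjusted p = 0.0458, where 0.531% of all probe sets were called) and ICR was lower than DBA by -2.82 (SE 0.36, adjusted p = 0.0391, where 0.306% were called). On 3 of its arrays it read below the added constant of 8.05, so the size depends on that constant.

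Endothelial markers give a scale for the vessel genes. Of the 11 measured, 10 passed the filter and 0 were called in ICR against C57, DBA against C57 or ICR against DBA, with 4, 2 and 3 at an unadjusted p below 0.05. Over all 7453 probe sets tested, 1345, 858 and 1160 had such a p in the same order. The median differences of the endothelial markers were log2 0.29, 0.23 and 0.05, against -0.02, -0.03 and 0.01 over all probe sets tested. Mesothelial markers, from cells that also carry thrombomodulin, had medians of -0.69, -0.29 and -0.30 over the 4 measured. Platelet markers were dim: 5 of 10 were measured, 2 passed the filter, Pf4 read 2.78 to 18.1, and the part of platelets in the Vwf values was not tested.

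The other genes of coagulation and fibrinolysis were taken as a list of 44, of which 36 were measured and 15 passed the filter. None of the 15 was called for smoke (0 at an unadjusted p below 0.05), in ICR against C57 (3), DBA against C57 (2) or ICR against DBA (3), and none for the response of 1 strain (1 in each). Of all 7453 probe sets tested, 122, 1345, 858 and 1160 had such a p in the same order. For the responses of ICR, DBA and C57 these counts were 1067, 294 and 224. The median smoke difference of the 15 was log2 0.02. Plg, plasminogen itself, had the largest smoke difference of these, 0.78 (SE 0.39, adjusted p = 1), and Plgrkt, a plasminogen receptor, had -0.34 (SE 0.28). The pairs of Plg were log2 0.68 in ICR, 1.96 in DBA and -0.29 in C57. Those of Plgrkt were -1.21, 0.13 and 0.07 in the same order, so it was lower with smoke in ICR alone. For strains, Tfpi, the inhibitor of tissue factor and factor VII, differed by 0.97 (SE 0.30, adjusted p = 0.132) in ICR against C57 and 1.14 (SE 0.30, adjusted p = 0.120) in ICR against DBA. F2r, the thrombin receptor, differed by 0.72 (SE 0.18, adjusted p = 0.0875) in ICR against C57. Ggcx, the carboxylase that matures the vitamin K-dependent factors, differed by -1.25 (SE 0.36, adjusted p = 0.159) in DBA against C57 and 1.46 (SE 0.36, adjusted p = 0.102) in ICR against DBA.

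Several coagulation genes made in liver read highest on the DBA smoked array. The 4 given here were picked after their values were seen, and F2, Fga and Serpinc1 were below the filter. Fga, a fibrinogen chain, read 125 in smoked and 5.15 in control DBA lungs, F2, prothrombin, 51.9 and 4.61, Serpinc1, antithrombin, 62.9 and 3.84, and Plg 176 and 31.9. On the ICR and C57 arrays Fga read 7.91 to 25.4 and Plg 25.8 to 45.5. The summed intensity of 10 liver markers was 4443 in smoked and 559 in control DBA lungs and 102 to 344 on the ICR and C57 arrays, and Alb read 1455 on the DBA smoked array, while the marker Apoa2 was lowest there, at 13.4. Other liver-made genes of the list did not peak on that array: F12 read 7.62 in smoked and 25.6 in control DBA lungs, and Proc, protein C, 51.9 and 43.8, against 52.5 in control C57 lungs. F7 and F10, which liver also makes, were not highest on that array: F10 read 17.8 there at 103977_at, and F7 read 513 at 161458_at, against 517 in smoked C57 lungs. The DBA response of Plg was log2 1.76 above the other strains (adjusted p = 0.434). The part of liver message in the Plg values was not tested.

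For the 5 member probe sets that passed the filter and spanned more than log2 1, the genes of nearest profile were sought among 5734, by the mean absolute difference of the centred log2 values over the 6 arrays. For Plat they were Plxna1 (0.08), Ddr2 (0.10) and S1pr2 (0.12). Plxna1 read 152 and 162 in smoked and control DBA lungs, and 49.8 and 40.6 in smoked and control C57 lungs, higher in DBA as Plat was. For Procr they were Dnajb1 (0.13), Ctla2b (0.13) and Tubb2a (0.14), and for Thbd at 104601_at Atp6v1c1 (0.04), Rasa1 (0.04) and Fermt2 (0.06). For F5 they were Dock2 (0.16), Ptpn6 (0.16) and Rgs14 (0.17). Dock2 read 46.2 in smoked and 83.9 in control DBA lungs. For F3 they were Lefty1 (0.08), Pcp4l1 (0.09) and Rab3d (0.09). With 6 arrays many genes have a like profile, so this is a description.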

How the data were processed

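The deposited values are probe set intensities on a linear scale, 1 per probe set and array. The labels' protocols give Trizol extraction of total RNA and biotin-labelled cRNA. The authors' summary method, scaling and detection calls are not given in those sources, and the number of arrays limits the precision. Intensities were transformed as log2(intensity + 8.05), the constant being the 20th percentile over the table, followed by quantile normalization, since array medians spread over log2 1.45. The 66 control probe sets were then dropped, and a filter on the mean, set at the 40th percentile, left 7453. Symbols come from the platform annotation, and coordinates and promoters from RefSeq, GRCm38.p6. No arrays were identical.

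limma 3.58.1 (R 4.3.3; lmFit, then eBayes with trend) estimated smoke and strain effects from a model of strain and smoke, with 2 residual degrees of freedom. A strain's response was an extra smoke term, with 1. Tests were 2-sided, Benjamini-Hochberg adjusted over all 7453, and called below 0.05. The fits were tested on simulated data. Members, gene lists and tests were chosen with earlier results of these data known. Named genes were all member probe sets, examples from marker lists and the 3 nearest profiles. Of the pathway genes, the 2 of largest difference were named for smoke, ICR against C57 and ICR against DBA. For DBA against C57 only the largest was named, and for the responses of 1 strain the largest were not all given. The liver-made genes were named outside this rule. Alternatives were another constant, other filters, scalings and variance priors, no strain block, other folds, and each pair or array left out. Plots used matplotlib 3.10.9 in Python 3.11.15.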

Additional observations from a re-analysis of the deposited data

How the results depend on the processing

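No member was called for smoke in any alternative run (0 to 0 with each pair left out), and F5 kept its direction in the 10 it entered, at log2 -0.89 to -0.39, with adjusted p from 0.812 to 1. It falls out under the filter at the 60th percentile. Every sample carries the same replicate number, 1, so the numbers pair nothing beyond strain. The smoked and control arrays of a strain were the pairs, and strain was the block in the smoke fit. Without the strain block 0 members were called.

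Counts of members called moved as follows. Plat in DBA against C57 (1 call) gave 0 without scaling, with a common median and without the mean trend, and with no filter the 1 call was Vwf at 97052_at in its place. Procr in ICR against C57 (1 call) gave 0 with no filter, with the filter at the 60th percentile and without scaling. ICR against DBA (0 calls) gave 1 with no filter and 1 without scaling. With an array left out the counts ran from 0 to 1 in DBA against C57, 0 to 2 in ICR against C57 and 0 to 2 in ICR against DBA. The ICR response gave 1 without scaling, Thbd at 104601_at (log2 -2.16), when 1787 of all probe sets were called. Members of at least 2-fold numbered 0 in each pair, but 2 in DBA with no filter, 1 in DBA with a common median, 4 in ICR without scaling, and 1, 1 and 2 in C57, DBA and ICR at 1.5-fold. Over the whole table the calls ran from 66 to 256 in DBA against C57 (129 as reported), 32 to 514 in ICR against C57 (171), 12 to 293 in ICR against DBA (87) and 0 to 61 for smoke (3). No called value changed sign. Of 870 single values recomputed 63 changed sign without a call, 33 of them without scaling, where the ICR smoked array is dimmest. Procr, at the 59.4th percentile of mean signal, is not tested under the filter at the 60th. With no filter its difference is unchanged at log2 1.33, while more probe sets are tested and enter the prior. Its SE is then 0.264 against 0.257, its unadjusted p by limma 0.00149 against 0.000607, and its adjusted p 0.111. The cause of the other lost calls was not tested. No detection call was used, so low signals such as F10 and Plau are limited by background of unknown size.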
